A study of Sus scrofa with 18 samples.

Results

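The comparison set tumours labelled mouth against tumours labelled nose in pigs of the DIK line, by RNA-seq. The 3 DIK mouth and 3 DIK nose libraries, 6 of the 18 libraries in the series, were chosen by their labels, and 10341 of the 27339 genes in the count table passed a filter on low counts and were tested. DIK pigs carry a double knock-in of elements of the Tet-on system, which switches a gene on with doxycycline (Dox), and of the phiC31 integrase system. Dox treatment began when the animals were 7 months old, and they were sampled 8 months after that. The tumours of 1 founder animal gave all DIK libraries, and it is the only founder described as developing tumours. The promoter that drives the Tet-on element, and the gene it switches on, are not stated in the labels. The other libraries were 3 of DIK tumours labelled scrotum and 3 each of normal mouth, nose and scrotum tissue of age-matched wild-type (WT) pigs, also given Dox, whose number is not given. The replicates of a group are separate libraries, and nothing states that they came from separate tumours, so the p-values reflect the spread among the libraries alone, and that spread may be technical. With 1 animal, a difference between sites cannot be told apart from a difference between individual tumours.

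Stratified squamous epithelium covers the mouth and the skin, that of the outer nose included. Its basal cells, held to the basement membrane by integrins and laminins, divide and give rise to cells that switch keratins, build a cross-linked envelope and, in skin, cornify. Oral and skin epithelium use different keratins and envelope proteins, and HOX and homeobox genes keep a record of body position, with HOX genes largely silent in the face. Interferon-stimulated genes and the major histocompatibility complex (MHC) genes report immune signalling in such tissue.

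Total counts were 3033987, 3940709 and 3565282 in the mouth-labelled libraries and 4146150, 4143718 and 3522272 in the nose libraries. A count of 3, taken as the detection floor, came to 0.724 to 0.989 CPM, a gene's count divided by its library's total and put on a fixed scale. Levels are given below as CPM after TMM scaling over the 6 libraries, in the order of replicates 1, 2 and 3. The principal component with the largest share of variance (50.65%) separated the groups, and the next (21.31%) set nose replicate 2 apart from the other nose libraries. Log CPM of nose replicates 1 and 3 correlated at r = 0.969 across genes, against 0.936 and 0.926 for the pairs with nose replicate 2. Genes are not independent replicates, so these are descriptions. Results that rest on nose replicate 2 are given with and without it.

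HOX genes, which mark body position, went against the mouth label. Members of the HOX clusters, transcription factors that pattern the trunk and limbs, were detected more widely in the mouth-labelled tumours. Of 15 posterior members in the table, 5 were at 0 counts in all mouth-labelled tumours and 9 in all nose tumours, with 5 at 0 in both. Of 21 anterior and middle members, 4 were at 0 in all mouth-labelled tumours and 14 in all nose tumours, with 3 at 0 in both. Summed over 3 libraries, the posterior HOX list had 191 counts in the mouth-labelled tumours and 59 in the nose tumours, and the anterior and middle HOX list had 147 and 30. HOXA9 had 5, 18 and 13 counts in the mouth-labelled tumours and 0, 0 and 0 in the nose tumours, which is at least 13.4-fold higher against a floor of 3 counts over the group. HOXA10 had 10, 8 and 19 counts in the mouth-labelled tumours and 0, 0 and 0 in the nose tumours, at least 13.8-fold higher. HOXC9, with 7, 36 and 12 counts against 1, 0 and 7, was detected in 2 of the nose libraries. HOXD9 overlapped between the groups, at 5, 8 and 11 counts in the mouth-labelled tumours and 11, 6 and 12 in the nose tumours. None of the HOX genes passed the filter on low counts. In the edgeR fit without that filter, HOXA9, HOXA10 and HOXC9 had adjusted p = 1.54e-06, 7.05e-07 and 0.000122. Counts this low carry large counting error, and these genes were picked after their values were seen.

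Below, a gene is called, and described as higher or lower, at an edgeR adjusted p under 0.05. Among 10 tested jaw and face patterning factors, 5 were lower in the mouth-labelled tumours and 0 were higher, with a median log2 difference of -1.12. Over all genes tested, 3.37% were lower and 2.38% higher, with a median of -0.00062. OTX1, a head homeobox factor, had 3.22, 7.34 and 3.78 CPM in the mouth-labelled tumours, against 51.5, 26.8 and 60.1 CPM in the nose tumours. The groups did not overlap. The log2 difference was -3.23 ± 0.37 (SE, n = 3 each), with an edgeR adjusted p of 0.000181. MSX1 (-2.38), DLX4 (-1.48) and DLX3 (-1.18), factors of jaw and tooth development, were also lower. Of 6 tested hindlimb, trunk and genital patterning factors 1 was higher and 5 were not called (median log2 difference 0.42), and the list summed to 65.4, 69.0 and 89.3 CPM in the mouth-labelled tumours and 62.6, 66.1 and 64.6 CPM in the nose tumours. The called one was EN1, a homeobox factor of ventral limb skin, at 4.51, 7.59 and 7.55 CPM against 0.495, 1.64 and 2.24 CPM (log2 difference 2.18 ± 0.47, adjusted p = 0.0124). OTX1 was called in all 6 fits that left out 1 library. MSX1, DLX4, DLX3 and EN1 lost the call in 2 to 5 of them, with adjusted p of at most 0.0848. The list had 2 lower members without mouth replicate 1 and 3 without mouth replicate 2, mouth replicate 3 or nose replicate 1.

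Position genes did not place the scrotum-labelled DIK tumours on one side. Their posterior HOX list summed to 27 counts, against 191 in the mouth-labelled and 59 in the nose tumours. PITX1, a hindlimb and jaw factor, had 261, 362 and 124 counts in the scrotum-labelled tumours, 24, 41 and 43 in the mouth-labelled and 30, 55 and 44 in the nose tumours. OTX1 summed to 55 counts in the scrotum-labelled tumours, 54 in the mouth-labelled and 521 in the nose tumours, and DLX3 to 52, 100 and 236 counts in the same groups. These sums were not tested. In WT tissue the posterior HOX list summed to 923 counts at the mouth label, 22 at the nose label and 57 at the scrotum label. The tissue behind a label was not otherwise tested, so the groups are called mouth-labelled and nose below.

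**Figure D1:**
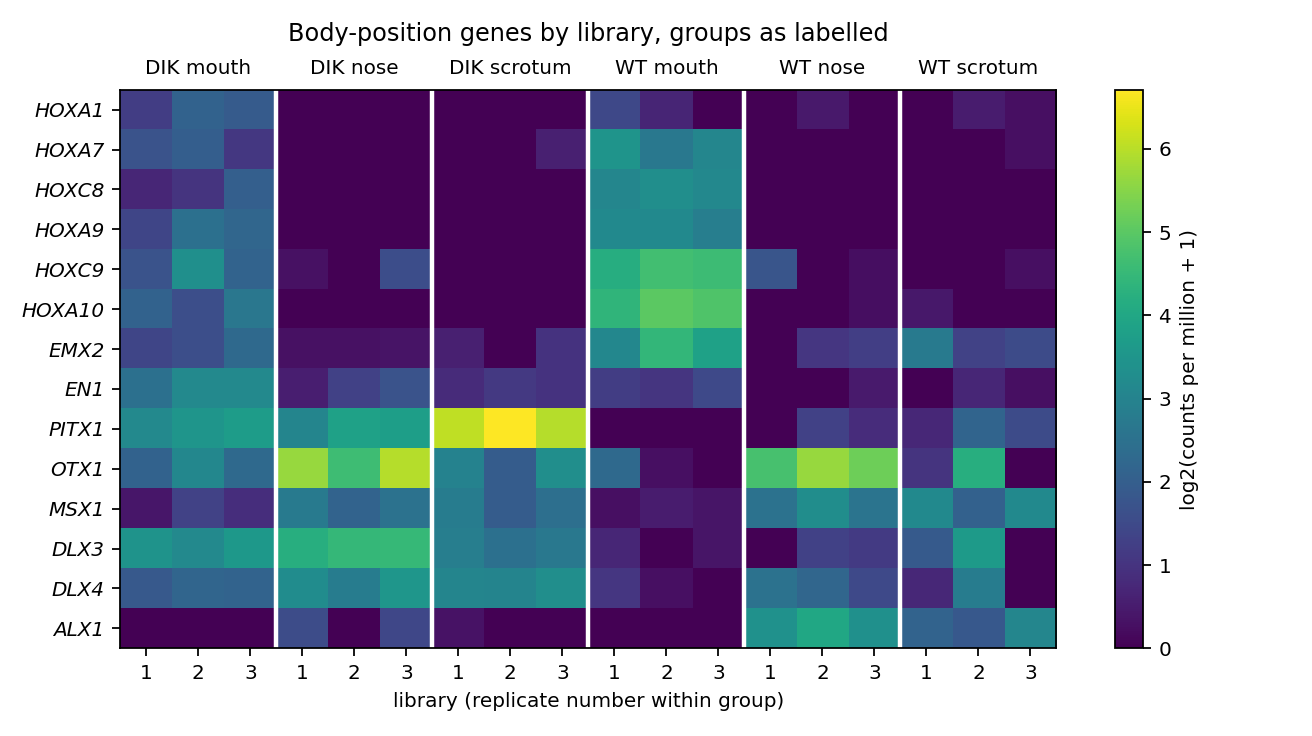
Level of body-position genes (rows) in each of the 18 libraries (columns, grouped by label), as log2(CPM + 1). HOXA9 and HOXA10 are above 0 in all 3 DIK mouth libraries and at 0 in all 3 DIK nose libraries, while OTX1 is lower in every DIK mouth library than in any DIK nose library.

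Of the 10341 genes, 594 (5.74%) differed between the mouth-labelled and nose tumours, 246 higher and 348 lower in the mouth-labelled tumours. At least a 2-fold difference was reached by 188 of the higher and 322 of the lower genes. The 3 against 3 libraries did not overlap for 23.7% of all genes tested, 11.8% higher and 11.9% lower. Scaled by library size alone, 671 genes were called and the split turned to 388 higher and 283 lower. That scaling also moved the median of all genes by 0.11 on the log2 scale. Whether this shift accounts for the changed split was not tested. No called gene changed sign in any of the 16 alternative fits. Leaving out 1 library at a time gave 299 (without mouth replicate 1) to 1340 calls (without nose replicate 2). The other counts were 309 without mouth replicate 3, 314 without nose replicate 1, 380 without mouth replicate 2 and 445 without nose replicate 3. A fit with all 18 libraries, whose shared spread includes the WT tissue, called 199, of which 160 were among the 594.

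**Figure D2:**
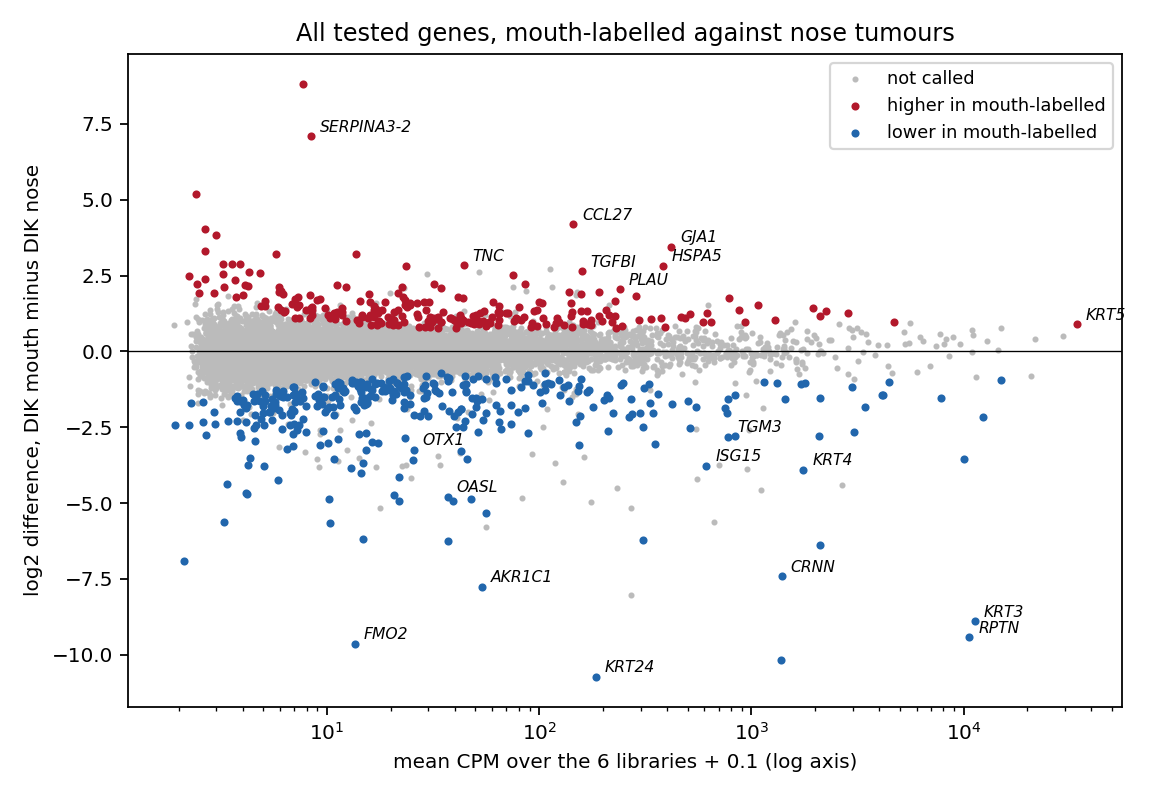
Log2 difference of each tested gene, DIK mouth minus DIK nose (vertical axis), against its mean CPM over the 6 libraries plus 0.1 (horizontal log axis), with called genes coloured. The 348 lower genes reach further from 0 than the 246 higher ones, with KRT24 at -10.73 and RPTN at -9.41.

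Genes of mucosal and cornifying squamous epithelium were among the largest differences, and those called were lower in the mouth-labelled tumours. Of 9 tested oral mucosa genes 4 were lower and 0 higher (median log2 difference -1.06), and of 23 tested genes of the cornified epidermis 11 were lower and 0 higher (median -0.91). The summed oral mucosa level was 1917, 2889 and 1959 CPM in the mouth-labelled tumours and 8871, 9001 and 10524 CPM in the nose tumours. CRNN (cornulin), an envelope-associated protein of oesophageal and oral epithelium, had 9.99, 26.9 and 11.3 CPM in the mouth-labelled tumours, against 2587, 2968 and 2725 CPM in the nose tumours. Every nose library exceeded every mouth-labelled one by a wide margin, with a log2 difference of -7.41 ± 0.41 (adjusted p = 2.66e-07). RPTN (repetin), an envelope precursor of the same fused-gene family, had 23.2, 48.0 and 22.1 CPM against 23105, 22241 and 18403 CPM, a log2 difference of -9.41 ± 0.41 (adjusted p = 8.5e-09). KRT3, a keratin of corneal and oral epithelium, had 45.8, 31.3 and 65.8 CPM against 24653, 9998 and 33105 CPM (log2 difference -8.89 ± 0.60, adjusted p = 5.02e-05). CRNN was at -8.01 without mouth replicate 2, and all 3 calls held in every alternative fit.

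KRT24, a differentiation keratin, had 2 counts over the mouth-labelled tumours and 4185 over the nose tumours, a ratio nose over mouth-labelled of 1867 (exact 95% counting interval 517 to 15423). Its nose levels were 449.7, 85.2 and 575 CPM, and its call was lost without any of the 3 mouth-labelled libraries (adjusted p up to 0.0788). KRT4, the suprabasal keratin of oral mucosa, had 169, 270.2 and 219.8 CPM in the mouth-labelled tumours and 3570, 1194 and 5097 CPM in the nose tumours (log2 difference -3.90 ± 0.53, adjusted p = 0.00435). MUC21, a membrane mucin of squamous mucosa, was lower at -2.59 ± 0.42 (adjusted p = 0.00195). CNFN (cornifelin) was lower at -1.06 ± 0.27 (adjusted p = 0.0325), a call lost without mouth replicate 1, mouth replicate 3 or nose replicate 1. The other members of the oral list were not called, among them RHCG at 0.76 and MAL at -2.49.

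TGM3, a transglutaminase that cross-links the envelope, had 219, 150.0 and 209 CPM in the mouth-labelled tumours and 1410, 1336 and 1328 CPM in the nose tumours. The nose libraries lay close together and far above the mouth-labelled ones (log2 difference -2.82 ± 0.24, adjusted p = 5.32e-06). HRNR (hornerin), another fused-type protein, was lower at -2.53 ± 0.23 (adjusted p = 1.22e-05). SPINK5, the inhibitor of epidermal kallikreins, had 2116, 2935 and 1695 CPM against 5722, 6817 and 5854 CPM (log2 difference -1.45 ± 0.25, adjusted p = 0.00257). KLK12, a kallikrein-related protease, was at 2.26, 1.71 and 2.97 CPM against 39.4, 43.4 and 40.8 CPM (log2 difference -4.14 ± 0.28, adjusted p = 7.16e-07). Of 16 tested enzymes of the epidermal lipid barrier, 2 were lower, the lipoxygenases ALOX12B (-1.99) and ALOXE3 (-2.13), and 14 were not called (median of the list -0.44). PADI3, a deiminase of the hair follicle and upper epidermis, was lower at -2.27 ± 0.42 (adjusted p = 0.00507). The calls of these 7 genes held in all 6 fits that left out 1 library. With all 18 libraries 1 of 24 cornified epidermis genes was lower and 0 higher, and 7 of 23 were lower without mouth replicate 3.

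Basal and lineage genes differed less. Of 14 tested basal keratinocyte genes 3 were higher and 0 lower (median 0.77), and of 16 squamous lineage transcription factors 2 were lower and 0 higher (median -0.29). LAMA3, a chain of the basement membrane laminin-332, had 99.2, 63.9 and 111 CPM in the mouth-labelled tumours and 23.0, 41.5 and 24.6 CPM in the nose tumours. The groups did not overlap (log2 difference 1.62 ± 0.28, adjusted p = 0.00288), and the call held in all 6 fits with 1 library left out. COL17A1, a hemidesmosome collagen (1.11 ± 0.27, adjusted p = 0.0263), and the basal keratin KRT5 (0.90 ± 0.23, adjusted p = 0.0298) were higher, but each lost the call in 4 of these 6 fits (adjusted p up to 0.188). Without nose replicate 2, 9 of the 14 basal genes were higher and 1 was lower, and without any of the other 5 libraries 1 to 2 were higher. KLF4 (-0.94) and HOPX (-1.09), 2 factors of differentiating keratinocytes, were lower, a call lost in 4 and 3 of the 6 fits. TP63, the master factor of squamous lineage, was not called (-0.14 ± 0.23).

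Keratin KRT7, of simple epithelium, had 108, 106 and 169 CPM in the mouth-labelled tumours and 15.1, 27.3 and 24.3 CPM in the nose tumours (log2 difference 2.52 ± 0.28, adjusted p = 6.81e-05). Of 6 tested genes of simple epithelium it was the only one called. Of 12 desmosome genes, the cadherin DSG2 was higher (1.14 ± 0.21, adjusted p = 0.00435) and the plakin PPL lower (-1.35 ± 0.27, adjusted p = 0.00713), and 10 were not called. PPL lost its call without mouth replicate 1 or 3 (adjusted p up to 0.0577). GJA1, the gap junction protein connexin 43, had 874, 871 and 556 CPM against 57.7, 104 and 48.9 CPM, with no overlap (log2 difference 3.45 ± 0.32, adjusted p = 1.79e-05).

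**Figure D3:**
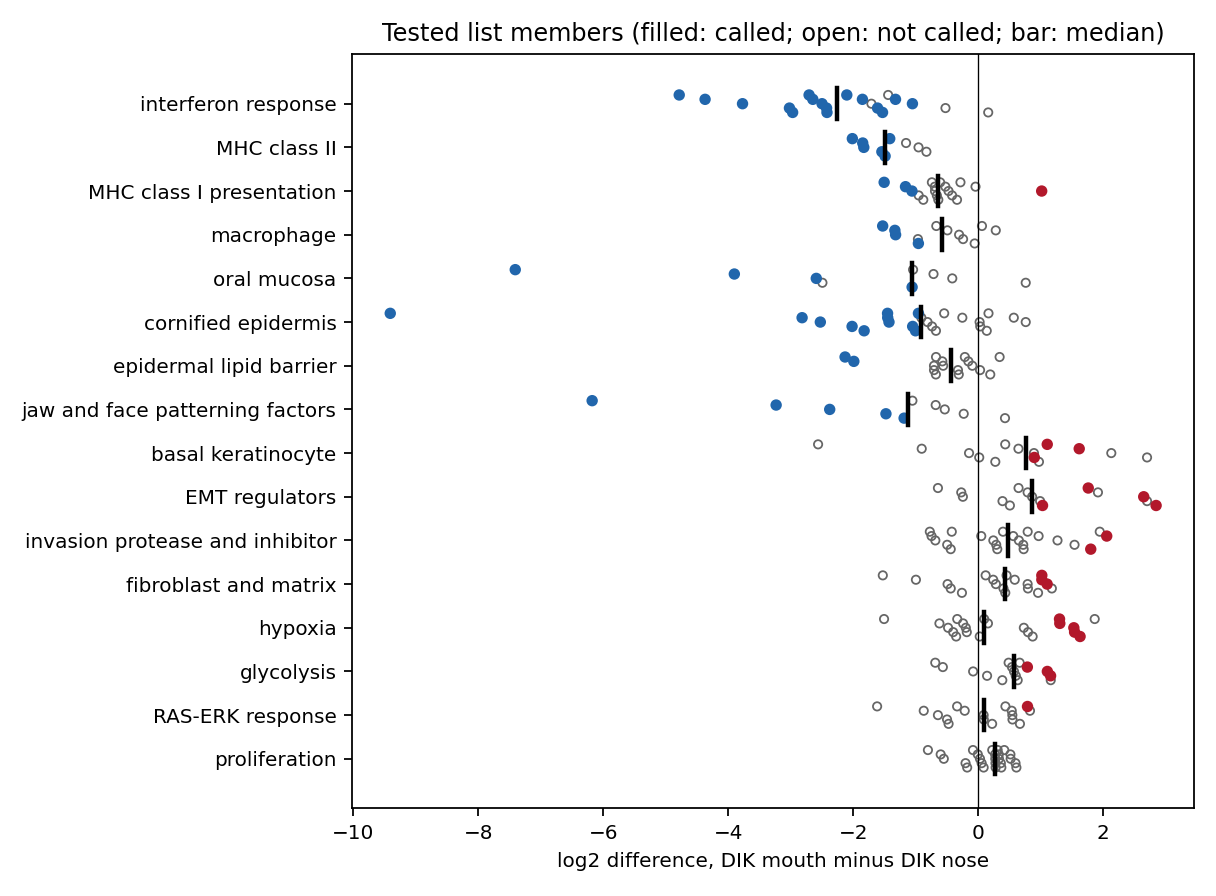
Log2 difference, DIK mouth minus DIK nose, of each tested member of 16 gene lists, filled where called and open where not, with a black bar at the list's median. All 16 called interferon response genes lie below 0 (median -2.26), and the 5 called hypoxia genes lie above 0 (median 0.10).

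Interferon-stimulated genes were lower in the mouth-labelled tumours as a group. Of 20 tested members 16 were lower and 0 higher, with a median log2 difference of -2.26, against 3.37% lower over all genes. The summed level of the list was 225, 219 and 234 CPM in the mouth-labelled tumours and 1324, 2442 and 1284 CPM in the nose tumours. ISG15, a ubiquitin-like protein that interferon induces, had 77.7, 83.0 and 90.1 CPM in the mouth-labelled tumours and 843, 1787 and 794 CPM in the nose tumours. The groups did not overlap, and nose replicate 2 was the highest (log2 difference -3.77 ± 0.33, adjusted p = 9.92e-06). MX1, an antiviral GTPase, had 3.54, 4.41 and 3.24 CPM against 28.2, 35.5 and 28.2 CPM (log2 difference -3.02 ± 0.27, adjusted p = 1.08e-05). OAS1, an enzyme that senses double-stranded RNA, had 14.8, 15.2 and 12.1 CPM against 79.0, 101 and 84.2 CPM (log2 difference -2.65 ± 0.22, adjusted p = 5.32e-06). Its relative OASL had 2.58, 3.43 and 1.62 CPM against 56.2, 108 and 50.6 CPM (log2 difference -4.78 ± 0.38, adjusted p = 5.32e-06). STAT2, a transcription factor that interferon receptors activate (0.16), IFIT3 (-1.44) and RSAD2 (-1.71, adjusted p = 0.0505) were among the 4 that were not called. ISG15, MX1, OAS1 and OASL were called in every alternative fit, and 14 to 16 members were lower in each fit that left out 1 library. With all 18 libraries 13 of 23 were lower.

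MHC class II genes, which present antigen from outside the cell, were lower too, with 6 of 9 tested members lower, 0 higher and a median of -1.49. SLA-DRA, a class II chain, had 101, 107 and 118 CPM in the mouth-labelled tumours and 417, 193 and 343 CPM in the nose tumours (log2 difference -1.54 ± 0.27, adjusted p = 0.00313). CD74, the invariant chain, had 52.2, 97.9 and 84.7 CPM against 260.4, 177 and 398 CPM (log2 difference -1.83 ± 0.31, adjusted p = 0.00365). In both genes nose replicate 2 was the lowest nose library and still above the mouth-labelled ones. Both were called in every alternative fit, whereas the list had 10 of 10 lower without nose replicate 2 and 2 to 3 lower without any of the other 5 libraries. CIITA, the class II transactivator, was lower at -1.49 ± 0.38 (adjusted p = 0.034). Among 18 MHC class I genes B2M (-1.06), PSMB8 (-1.50) and ERAP1 (-1.16) were lower, PDIA3 (1.02) was higher, and 14 were not called (median -0.65). Without nose replicate 1, 0 of these were called in either direction. Without nose replicate 2, 12 were lower and 1 higher, and without any of the other 4 libraries 0 to 2 were lower.

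Of 12 tested macrophage genes, 4 were lower and 0 higher (median -0.58). They were the complement genes C1QA (-1.33, adjusted p = 0.0241) and C1QB (-1.32, adjusted p = 0.0187), AIF1 (-1.53, adjusted p = 0.0466) and TYROBP (-0.96, adjusted p = 0.0472). Without any of the libraries other than nose replicate 2, 0 macrophage genes were called, and without that library 5 were. The macrophage list summed to 174, 178 and 211 CPM in the mouth-labelled tumours and 282, 216 and 297 CPM in the nose tumours, and CD68, a pan-macrophage marker, was at -0.05 on the log2 scale. In bulk tissue fewer cells of a type and less RNA per cell cannot be told apart. Whether the class II difference follows the macrophage genes was not tested. Of the interleukin-1 family control genes, GSDMD, a pore-forming protein of pyroptosis, was higher (80.6, 96.7 and 93.0 CPM against 30.2, 33.6 and 47.0 CPM, log2 difference 1.29 ± 0.23, adjusted p = 0.00313). IL18BP, a secreted inhibitor of interleukin-18, was lower (-2.31 ± 0.56, adjusted p = 0.0264). CCL27, a chemokine of keratinocytes that attracts skin-homing T cells, was higher at 298, 284 and 239.8 CPM against 5.45, 29.2 and 10.1 CPM (log2 difference 4.20 ± 0.58, adjusted p = 0.00722). The IL18BP call was lost without mouth replicate 1, mouth replicate 3 or nose replicate 1 (adjusted p up to 0.136). The CCL27 call was lost without mouth replicate 1 or 3 (adjusted p up to 0.0542). Their log2 differences were -3.86 for IL18BP without mouth replicate 2 and 5.16 for CCL27 without nose replicate 2.

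**Figure D4:**
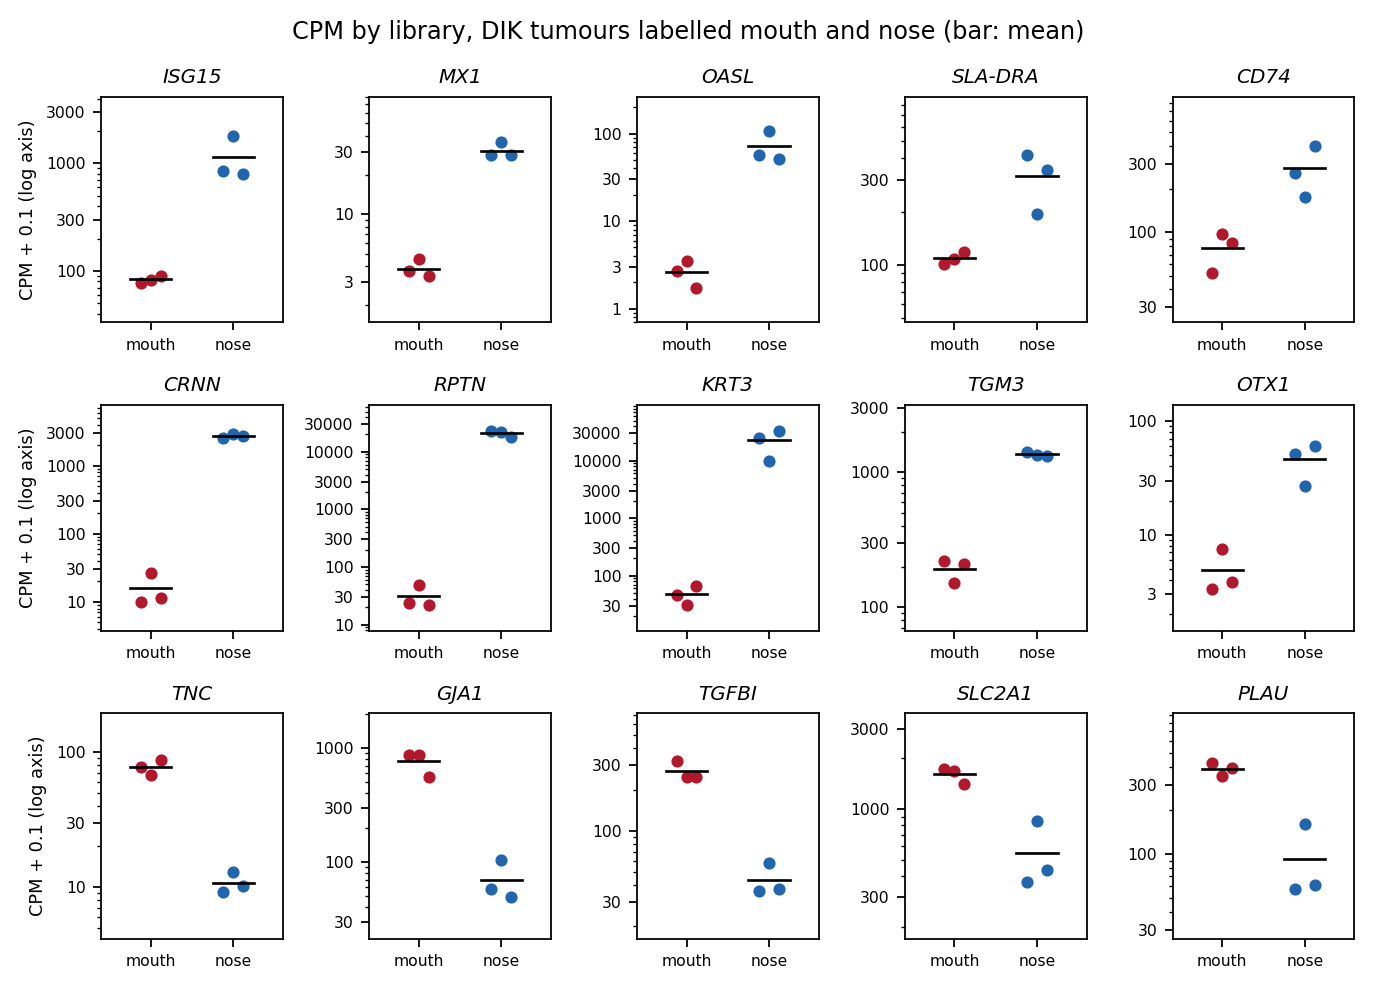
CPM plus 0.1 of 15 genes in each library (log axis in every panel), mouth-labelled tumours on the left and nose tumours on the right, with a bar at the mean of 3 libraries. For ISG15, MX1, OASL, SLA-DRA, CD74, CRNN, RPTN, KRT3, TGM3 and OTX1 every mouth-labelled value is below every nose value, and for TNC, GJA1, TGFBI, SLC2A1 and PLAU every one is above.

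Adhesion and matrix genes were among the higher ones. Of 15 tested regulators and markers of epithelial-mesenchymal transition (EMT) 4 were higher and 0 lower (median 0.86), and of 22 invasion proteases and inhibitors 2 were higher and 0 lower (median 0.48). TNC, the matrix glycoprotein tenascin C, had 77.3, 67.3 and 86.8 CPM in the mouth-labelled tumours and 9.16, 12.8 and 10.1 CPM in the nose tumours. The 2 groups were well apart (log2 difference 2.85 ± 0.23, adjusted p = 4.68e-06). TGFBI, a matrix protein that TGF-beta induces, had 325, 248 and 247 CPM against 35.9, 57.4 and 37.2 CPM (log2 difference 2.65 ± 0.26, adjusted p = 1.87e-05). ITGA5, the fibronectin receptor chain, had 59.0, 64.9 and 77.4 CPM against 17.1, 24.6 and 17.6 CPM (log2 difference 1.76 ± 0.23, adjusted p = 0.0003). VIM, the mesenchymal intermediate filament vimentin, was higher at 1.03 ± 0.25 (adjusted p = 0.0244), a call lost in 4 of 6 fits with 1 library left out. LOXL2, an enzyme that cross-links collagen, had 43.5, 36.0 and 43.7 CPM against 5.45, 9.83 and 2.24 CPM (log2 difference 2.80 ± 0.36, adjusted p = 0.0005).

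PLAU, the urokinase plasminogen activator, had 423, 347 and 392 CPM in the mouth-labelled tumours and 57.4, 161 and 60.7 CPM in the nose tumours. Nose replicate 2 was the highest nose library and below all mouth-labelled ones (log2 difference 2.06 ± 0.37, adjusted p = 0.00863), and the call was lost without mouth replicate 1 or 3 (adjusted p up to 0.0587). Its log2 difference was 2.72 without nose replicate 2. CTSL, a lysosomal protease, was higher at 1.80 ± 0.29 (adjusted p = 0.00157) in all fits. The 20 other proteases and inhibitors were not called, among them MMP9 (1.95, adjusted p = 0.217). Without nose replicate 2, 11 of the 22 were higher and 1 was lower, and 10 of 16 EMT genes were higher. Without mouth replicate 1 or 3, 1 protease was higher. Fibroblast and matrix genes had 3 of 19 higher and 0 lower (median 0.44), the collagens COL5A2 (1.11, adjusted p = 0.00912) and COL12A1 (1.02, adjusted p = 0.0445) and the matricellular protein SPARC (1.02, adjusted p = 0.0196). Their summed list level was 4358, 4683 and 4571 CPM in the mouth-labelled tumours and 3449, 1667 and 3352 CPM in the nose tumours. Of these genes 1 was higher without nose replicate 1 or mouth replicate 1, and 0 without mouth replicate 3. The fit without nose replicate 2 called 4 higher and 3 lower, and limma-voom 5 higher and 2 lower. LGALS1, the lectin galectin 1, had 129, 70.5 and 224 CPM against 30.4, 37.1 and 22.6 CPM (log2 difference 2.23 ± 0.39, adjusted p = 0.00869), a call lost without mouth replicate 1 (adjusted p = 0.0563).

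Hypoxia and glucose genes were higher in part. Of 21 hypoxia genes 5 were higher and 0 lower, although the list's median was near 0 (0.10), and of 15 glycolysis genes 3 were higher and 0 lower (median 0.58), against 2.38% higher over all genes. SLC2A1, the glucose transporter GLUT1, had 1716, 1690 and 1414 CPM in the mouth-labelled tumours and 367, 850.2 and 435 CPM in the nose tumours (log2 difference 1.54 ± 0.30, adjusted p = 0.00636). CA9, a surface carbonic anhydrase, had 57.4, 47.7 and 45.0 CPM against 19.8, 20.2 and 20.7 CPM, with the nose libraries almost equal (log2 difference 1.30 ± 0.21, adjusted p = 0.00169). EGLN3, an oxygen-sensing prolyl hydroxylase (1.63 ± 0.30, adjusted p = 0.00504), and P4HA2, a collagen prolyl hydroxylase (1.53 ± 0.25, adjusted p = 0.00195), were higher in every alternative fit. VEGFA, the endothelial growth factor, was at 0.10 and was not called. Without nose replicate 2, 9 hypoxia genes were higher and 1 was lower.

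LDHA (lactate dehydrogenase A), PFKL (liver phosphofructokinase) and GPI (glucose phosphate isomerase) were higher at 1.16 ± 0.28, 1.11 ± 0.24 and 0.79 ± 0.20 (adjusted p = 0.0259, 0.0139 and 0.0363). LDHA had 3607, 2403 and 2697 CPM in the mouth-labelled tumours and 1142, 1873 and 879.9 CPM in the nose tumours. The 3 calls were lost in 3 to 5 of the 6 fits with 1 library left out. Of the glycolysis list, 0 were called without nose replicate 1 or mouth replicate 1, 1 without nose replicate 3, mouth replicate 2 or mouth replicate 3, and without nose replicate 2 there were 8 higher and 2 lower. FBP1, the gluconeogenic enzyme fructose bisphosphatase, was lower at 1.61, 2.20 and 1.08 CPM against 22.8, 31.1 and 26.8 CPM (log2 difference -4.00 ± 0.33, adjusted p = 4.83e-06). Of 13 immediate early and heat shock genes, the chaperones HSPH1 (1.27, adjusted p = 0.0259) and HSP90AA1 (0.97, adjusted p = 0.0199) were higher and 0 were lower. Both calls were lost without nose replicate 1 or mouth replicate 1. The HSPH1 call was also lost without nose replicate 3, and the HSP90AA1 call without mouth replicate 2. HSPA5, the endoplasmic reticulum chaperone BiP, had 1077, 649.8 and 283 CPM against 85.6, 117 and 79.4 CPM. The mouth-labelled libraries differed widely among themselves (log2 difference 2.83 ± 0.45, adjusted p = 0.00751), and the call was lost without nose replicate 3 (adjusted p = 0.0525). None of the 14 tested amino acid stress genes or of the 13 respiratory chain genes was called by edgeR or DESeq2. At an unadjusted p under 0.05 there were 2 and 1, and limma-voom called 1 in each list.

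Enzymes of detoxification and several secreted proteins were among the largest differences. FMO2, a flavin monooxygenase, had 0 counts in all 3 mouth-labelled tumours and 302 over the nose tumours, where it had 27.7, 24.3 and 28.2 CPM, so it was at least 89.8-fold lower against a floor of 3 counts over the group (adjusted p = 1.16e-06). The aldo-keto reductase AKR1C1 had 1.29, 0.245 and 0 CPM in the mouth-labelled tumours and 117, 85.8 and 117 CPM in the nose tumours (log2 difference -7.75 ± 0.47, adjusted p = 4.52e-07). CYP3A29, a pig cytochrome P450, had 0.644, 2.20 and 1.08 CPM against 38.9, 41.5 and 45.9 CPM (log2 difference -4.91 ± 0.34, adjusted p = 7.16e-07). All 3 genes held in every alternative fit. AKR1C1 was at -9.37 without mouth replicate 1, and CYP3A29 at -5.53 without mouth replicate 2. Of 15 NRF2 antioxidant genes, SRXN1, a sulfiredoxin, was higher (1.10 ± 0.25) and GCLC, a glutathione synthesis enzyme, was lower (-1.03 ± 0.29), with 13 not called. The calls of SRXN1 and GCLC were lost in 2 and 5 of the 6 fits with 1 library left out. SERPINA3-2, a serine protease inhibitor, had 181 counts over the mouth-labelled tumours and 1 over the nose tumours, a ratio of 203 (exact 95% counting interval 35.9 to 8056). SOSTDC1, a secreted BMP and WNT antagonist, was higher at 62.8, 72.7 and 31.0 CPM against 12.4, 13.4 and 12.9 CPM (log2 difference 2.11 ± 0.29, adjusted p = 0.000631). NDRG2, a stress-responsive protein, and SKAP2, an adaptor of leukocyte adhesion signalling, were higher at 2.21 and 2.20 (adjusted p = 0.00523 and 0.00239). ODAM, an amelogenesis protein (-5.65), APOD, a lipocalin (-4.92), SERPINA1, alpha-1 antitrypsin (-4.87), and NTRK2, the BDNF receptor (-4.85), were lower. Each of these 4 lost its call in at least 2 of 6 fits with 1 library left out.

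Growth genes gave few calls, but only 5.74% of all genes tested were called in either direction. Whether the growth lists differ from that share was not tested. None of the 25 proliferation genes was called in either direction by edgeR, DESeq2 or limma-voom (median 0.28), and 1 had an unadjusted p under 0.05. A positive sign was seen in 18 of the 25, against 49.9% of all genes tested. PCNA, the replication clamp, had 45.1, 34.0 and 40.2 CPM in the mouth-labelled tumours and 27.5, 37.7 and 30.8 CPM in the nose tumours, and MCM7, a helicase subunit, had 48.0, 57.8 and 56.9 CPM against 32.7, 52.4 and 44.2 CPM. The groups overlapped in both genes. Of 17 RAS-ERK response genes 1 was higher and 0 lower (median 0.09). It was CCND1, cyclin D1, at 49.0, 48.2 and 55.8 CPM against 31.4, 24.3 and 33.3 CPM (log2 difference 0.78 ± 0.21, adjusted p = 0.043), and it was called in 0 of the 6 fits with 1 library left out. The feedback phosphatase DUSP6 had 10.3, 8.08 and 18.9 CPM against 5.69, 14.5 and 5.31 CPM, and the transcription factor EGR1 had 20.6, 27.2 and 36.9 CPM against 69.3, 147 and 44.2 CPM (log2 difference -1.62 ± 0.44, adjusted p = 0.0815). Both were called without nose replicate 2, DUSP6 higher at 1.17 (adjusted p = 0.0394) and EGR1 lower (adjusted p = 0.0097). EGR1 was called lower in 6 of 16 alternative fits, DESeq2 and limma-voom among them (adjusted p from 3.12e-08 to 0.246 over the 16), and DUSP6 higher in 1 (0.0394 to 0.94). Of 9 EGFR ligands and receptors, EPGN (epigen) was lower at -1.15 ± 0.23 (adjusted p = 0.00826) and 8 were not called. The EPGN call was lost without mouth replicate 1 or 3 (adjusted p up to 0.0544). Without nose replicate 2, 3 of these 9 EGFR genes were higher and 2 were lower. None of the 18 ribosome biogenesis genes was called by edgeR or DESeq2, with 4 at an unadjusted p under 0.05 and 1 called by limma-voom. Of the RAS-ERK genes, 2 were higher and 2 lower without nose replicate 2.

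Nose replicate 2 stood apart in several readouts. The inflammatory cytokine list summed to 191, 128 and 274 CPM in the mouth-labelled tumours and 89.3, 459 and 81.6 CPM in the nose tumours. The neutrophil list, nearly all of it S100A12, summed to 6478, 7846 and 9887 CPM against 3525, 20589 and 2719 CPM. S100A12 is also a member of the wound and stress keratinocyte list. That list summed to 61196, 62411 and 63829 CPM against 42725, 101781 and 38490 CPM. The neutrophil receptor CXCR2 was not called in any fit, at -0.04 to 0.55 over the alternatives. Which cells the S100A12 RNA came from was not tested. S100A12 was not called (log2 difference -0.15), but was 1.38 without nose replicate 2 (adjusted p = 0.000475). PTGS2, the inducible prostaglandin synthase, had 106, 58.2 and 161 CPM against 6.68, 120.2 and 6.71 CPM, with a log2 difference of 1.28 (adjusted p = 0.71) and of 4.01 without that library (adjusted p = 2.2e-06). PHLDA1, an ERK-responsive gene, had 169, 158 and 172 CPM against 42.8, 193 and 44.5 CPM.

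Markers of other cells also differed between the nose libraries. The skeletal muscle list summed to 6.44, 12.7 and 12.1 CPM in the mouth-labelled tumours and 766, 15.8 and 986 CPM in the nose tumours. ACTA1, skeletal actin, had 4, 5 and 13 counts against 2814, 17 and 3248. It was not called in the edgeR fit of the 6 libraries (log2 difference -8.03, adjusted p = 0.169). In 3 of 15 alternative fits it was called lower. These were DESeq2, all 18 libraries (adjusted p = 0.00847) and the fit without nose replicate 2 (-8.60, adjusted p = 1.32e-14). Of 25 skeletal muscle genes in the table, 11 were at 0 in all mouth-labelled libraries and 0 in all nose libraries. JCHAIN, the joining chain of secreted antibodies, had 43, 53 and 38 counts against 1565, 129 and 1121. It was not called in the edgeR fit of the 6 libraries either (log2 difference -4.31, adjusted p = 0.106). The list that holds JCHAIN did not go in 1 direction. Of 5 tested B and plasma cell genes 1 was higher, SDC1 (syndecan 1, which epithelial cells also make; 1.36, adjusted p = 0.00225), and 0 were lower, with a median of 0.36. The list summed to 1326, 1384 and 1429 CPM in the mouth-labelled tumours and 975, 722 and 831 CPM in the nose tumours. In the fit that left out nose replicate 2, 1 of 7 was higher and 3 were lower. DESeq2 called 1 of 5 higher and 1 lower, and the fit with all 18 libraries 0 higher and 1 lower. Without the filter, 1 of 11 was higher and 2 were lower, with a median of -0.15. The T and NK cell list summed to 6.47 to 9.79 CPM in the mouth-labelled tumours and 13.4 to 30.2 CPM in the nose tumours, with 1 of its 15 genes tested. In the mouth-labelled tumours 7 skeletal muscle genes were called lower without nose replicate 2. The part of muscle, antibody-secreting or lymphoid RNA in the differences above was not tested. Without nose replicate 2, the nose library with the highest summed interferon list, 16 of 20 interferon genes were lower, with a median of -2.10 against -2.26 with it.

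**Figure D5:**
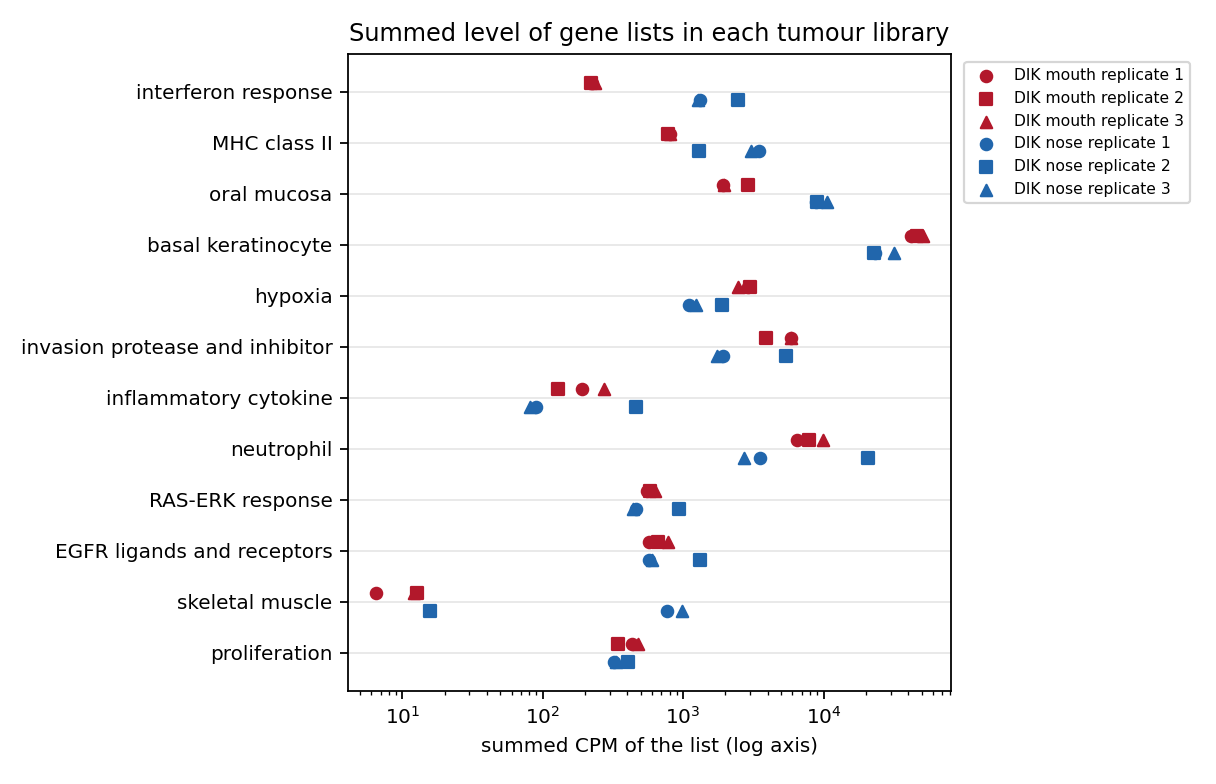
Summed CPM of 12 gene lists in each library (log axis), mouth-labelled tumours above nose tumours on each line, with the marker shape giving the replicate number. Nose replicate 2 (square) lies with the mouth-labelled tumours for skeletal muscle at 15.8 CPM. It lies above all of them for the neutrophil list, nearly all of it S100A12, at 20589 CPM.

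The mouth and nose labels were also compared in WT tissue. Of the 594 genes called in tumours, 137 were called in the same direction between WT mouth and WT nose tissue, 70 in the opposite direction and 387 not at all. These were 23.1% in the same and 11.8% in the opposite direction, against 10.8% and 10.7% of all 10341 genes by the sign of their tumour difference. The difference between the tumour and WT comparisons was itself tested in a fit of 12 libraries. It was called for 215 of the 594 genes, and for 1560 of 12510 genes (12.5%) over all genes tested. ISG15 had a tumour log2 difference of -3.77 and a WT one of 0.40 (interaction -4.17, adjusted p = 4.01e-05), and MX1 had -3.02 and 1.43 (interaction -4.45, adjusted p = 1.01e-05). The 418665 counts of WT nose replicate 1, the fewest in the series, limit the WT values.

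The scrotum-labelled tumours of the same founder give a further reference for some of these genes. On a TMM scale over all 18 libraries, ISG15 averaged 82.5 CPM in the mouth-labelled tumours, 1108 CPM in the nose tumours and 83.7 CPM in the scrotum-labelled tumours. CRNN averaged 16.0, 2676 and 1098 CPM in the same order, and GJA1 759, 68.1 and 58.1 CPM. HRNR averaged 151, 853 and 0.208 CPM. The nose tumours had the highest mean in 3 of these genes, and the mouth-labelled tumours in GJA1. Differences from the scrotum-labelled tumours were not tested.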

How the data were processed

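Messenger RNA of 18 pig tissue libraries was sequenced. Per the labels' protocols, RNA was prepared with TRIzol from tissue stored in RNAlater, and a VAHTS mRNA-seq kit was used for the libraries. The values deposited by the authors are whole-number read counts for each gene in each library, not normalized. Per the submitters' processing notes the tools were HTSeq 0.11.2, HISAT2 2.1.0 and fastp. Which genome build, annotation and strand setting were used is unstated: the sources used here do not give them. No coordinates are therefore printed, and sense and antisense reads cannot be told apart. Names were matched to RefSeq Sscrofa11.1 (26838 of 27339 symbols), used for names only. Families with near-identical copies (keratins, S100, SLA, OAS, AKR1C, CYP3A and SERPINA3 genes) are uncertain, since counting could split their reads.

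In R 4.3.3, counts of the 6 libraries were scaled by TMM and tested in edgeR 4.0.16 by quasi-likelihood (robust fit), after its default filter (minimum count 10, minimum total 15). The tested genes held at least 99.3% of each library's counts, with a biological coefficient of variation of 24.0% in common. Benjamini-Hochberg adjustment covered all tested genes and a gene was called under 0.05. The SE of a log2 difference is its size over the root of F. An interaction contrast used the 12 mouth and nose libraries of DIK and WT. Alternatives were other scalings, filters, DESeq2 1.42.0, limma-voom (limma 3.58.1), other sets of libraries, a replicate block, stricter thresholds and leaving out each library. Floors and intervals cover only counting error, because PCR copies cannot be told from independent molecules here. No 2 libraries of a group agreed within sampling noise (chi-square per degree of freedom at least 9.73). The steps were tested on simulated data.

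Named genes are the 15 largest non-overlapping called differences in each direction among genes with a proper symbol that average 10 CPM or more in the higher group, up to 4 called members of each of 53 lists (or the 2 most abundant where none was called), and the tested position and RAS-ERK genes. Some genes that meet these rules or count in a list are not reported here by name. Other genes named were chosen after their values were seen. The members, the lists and which named genes are described were chosen with earlier results of these data known.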

Additional observations from a re-analysis of the deposited data

Results flagged for a closer look

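For 40 of the 104 genes examined by name, the mouth-nose difference in tumours differed from that in WT tissue by an edgeR test of the interaction (adjusted p 1.38e-06 to 0.0456). Each value below is the tumour log2 difference minus the WT one, mouth minus nose in each.

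The interaction was negative for 26 genes. Among interferon and antigen presentation genes it was -4.17 for ISG15, -4.45 for MX1, -2.86 for OAS1, -1.92 for CD74, -2.14 for B2M and -2.26 for PSMB8. For CD74 the tumour difference was -1.82 and the WT one 0.10. The complement genes C1QA and C1QB had -1.87 and -1.61, IL18BP had -3.71, and the endothelial claudin CLDN5 had -2.44. Squamous genes had -4.92 (CRNN), -4.75 (RPTN), -6.03 (KRT3), -8.52 (KRT24), -6.94 (KLK12) and -2.16 (PPL). The KLK12 value rests on WT means of 0 CPM (nose) and 0.204 CPM (mouth) on the TMM scale over 18 libraries. CRNN, RPTN, KRT3 and KRT24 had negative differences in both tumours and WT tissue, with WT values of -2.49, -4.66, -2.85 and -2.20. Metabolic and secreted genes had -9.77 (AKR1C1), -5.65 (CYP3A29), -8.05 (FMO2), -4.94 (APOD) and -5.47 (SERPINA1), and the receptor NTRK2 had -6.72. The size of the FMO2 value is uncertain, because that gene had 0 counts in the mouth-labelled tumours. TNC, ITGA5 and VIM had -5.22, -3.21 and -1.57, with WT differences of 8.07, 4.97 and 2.61 beside tumour differences of 2.85, 1.77 and 1.04. ID2, an inhibitor of differentiation, had -1.44.

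The interaction was positive for 14 genes. Hypoxia and glycolysis genes had 4.42 (EGLN3), 2.90 (SLC2A1), 2.46 (LDHA), 1.71 (PFKL) and 2.56 (GPI). For EGLN3 the tumour difference was 1.64 and the WT one -2.78. The endoplasmic reticulum proteins HSPA5, PDIA3 and AGR2 had 4.39, 2.87 and 12.38, and AGR2 had a WT difference of -9.90. NDRG2 had 5.36, SKAP2 2.30, STRA6 4.44 and PHLDA1 4.72. On the TMM scale over 18 libraries, STRA6 averaged only 1.33 CPM in WT nose and 0.296 CPM in WT mouth tissue. The homeobox genes PITX1 and BARX2 had 4.80 and 4.03, with tumour differences of -0.23 and -0.67 that were not called. Both rest on low WT counts, so their size is uncertain. PITX1 had 0, 4 and 4 counts in WT nose and 0, 0 and 0 in WT mouth tissue. BARX2 had 5, 43 and 80 counts in WT nose and 8, 1 and 0 in WT mouth tissue.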

How the results depend on the processing

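Against 594 calls, the fit without a filter called 1070, limma-voom 960, all 18 libraries together 199 and an adjusted p under 0.01 273. Leaving out 1 library gave 299 to 1340 calls. The count stayed within 1.5 times under the other scalings, the stricter filter, DESeq2, 9 tumour libraries and the 2-fold threshold. The interaction, 1560 calls, gave 1048 to 2838 with 1 library left out (the highest without WT mouth replicate 1) and 665 at an adjusted p under 0.01. S100A12 was the only gene named above whose sign turned with a call, with a range of -0.58 to 1.38 over the fits with 1 library left out, against -0.15. The 1.38 was without nose replicate 2. The cause was not tested.

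Of the 94 called genes named in the text, 25 were called in all alternative fits and 38 with all 18 libraries. Leaving out 1 library lost 3 (nose replicate 2) to 46 (mouth replicate 1) of the 94 calls. A fit with fewer libraries has less power by construction, but the number of calls did not follow the number of libraries alone. Over all genes, 1340 were called without nose replicate 2 and 199 with all 18 libraries, against 594. How far power or dependence on single libraries accounts for the lost calls was not tested.

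Deviations of same-numbered libraries correlated at 0.168, -0.198 and -0.101, and those of differently numbered ones at -0.208 to 0.315. With 3 libraries per group these values cannot decide whether replicate numbers pair the samples. With the replicate number as a block, 465 genes were called, 443 of them among the 594, and 15 of the 94 named calls were lost.

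Depth limits genes near the floor of 0.724 to 0.989 CPM, among them the HOX genes.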
